A study of Mus musculus with 21 samples.

Results

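The genes of the mouse major histocompatibility complex (MHC) on chromosome 17 and the natural killer (NK) receptor and C-type lectin genes on chromosome 6 were compared by DNA copy number in liver tumours of mice on a steatohepatitis diet. The genes were those for which the array files name a probe, on chromosome 17 with a name that begins with H2- or is Tap1, Tap2, Tapbp, Psmb8 or Psmb9, and on chromosome 6 with a name that begins with Klr or Clec. This gave 60 of the 23286 named genes on chromosomes 1 to 19 and X, 24 on chromosome 17 and 36 on chromosome 6, and 120 probes. No probe was named for H2-K1, H2-D1, H2-Q1 or Tapbp, so the classical class I genes were not analysed here.

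The MHC encodes the molecules that show peptides to T cells. Class I molecules carry peptides from inside the cell, which the immunoproteasome cuts (Psmb8, Psmb9) and the transporter of Tap1 and Tap2 moves into the endoplasmic reticulum. Class II molecules carry peptides from engulfed material, and H2-DM and H2-O control their loading. The NK gene complex encodes lectin-like receptors by which NK cells and some T cells read the surface of other cells. Ly49 receptors (Klra genes) and the CD94 and NKG2 receptors (Klrd1, Klrc1, Klrc3, Klrk1) bind class I molecules or related ligands, and Nkr-p1 receptors (Klrb genes) bind Clec2 proteins. The neighbouring dectin-1 cluster and the Clec4 cluster encode receptors of myeloid cells.

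DNA of 21 fixed, paraffin-embedded liver tumours of C57BL/6 mice was labelled with Cy3 and hybridized to 2-colour arrays against a Cy5-labelled pool, named in the sample labels as liver tails and also of C57BL/6, with no dye swap. For 12 months all mice had received a high-fat diet that lacked choline (CD-HFD). The anti-PD1 group, which also received an antibody against the checkpoint receptor PD1 for 8 weeks, held 12 tumours of 7 mice, and the CD-HFD group held 9 tumours of 7 mice without the antibody. The leading number of a sample name was read as the mouse, by which 3 anti-PD1 mice and 2 CD-HFD mice gave several tumours. The series' own description counts the samples as 12 and 9 mice, so this reading is not settled, and a fit with every tumour independent also found 0 of 27 members to differ between the groups (limma, smallest adjusted p = 0.677, with 2 at an unadjusted p under 0.05). Slide 1 carried an array design of its own with 4 tumours of each group, and slides 2 and 3 carried a second design with 8 anti-PD1 and 5 CD-HFD tumours. A tumour sample also holds the DNA of its stroma, vessels and immune cells, and their share was not measured. DNA ratios carry no cell type markers, so the tissue label could not be checked in this way.

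A value below is the relative log2 ratio, the log2 ratio of tumour over reference centred on the median of the array, averaged over the probes of a gene, minus the mean of the same chromosome in the same tumour. A value of 0 is therefore the mean of chromosome 6 or 17 and not a known number of copies. Of the 60 genes, 27 were measured on all 21 arrays, 28 on slides 2 and 3 only and 5 on slide 1 only, and 28 of the 60 rested on 1 probe. Levels were tested against 0 for the 27 genes in a limma fit with array design as a term and mouse as a random block, over 13299 genes, and single-design genes in fits of their own slides. Array noise, as the scatter of adjacent probes along the genome, was 0.41 to 0.68. The lowest tumour signal was that of lesion 1 of mouse 608 (anti-PD1), where 65.0% of spots were well above background, and the highest noise that of lesion 2 of mouse 2064 (CD-HFD). Chromosome 17 as a whole lay between -0.16 and 0.13 in the 21 tumours and chromosome 6 between -0.26 and 0.22.

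All 120 probes of 45 to 60 bases had exactly 1 match in the GRCm38 genome, and by the GENCODE M21 annotation 46 lay in introns, 40 in coding exons, 21 in untranslated regions, 3 in non-coding exons and 10 between genes. The probes shown here are among the lowest (Tap2, H2-T3) and highest (Klrb1f), have the largest range of probe means within a gene (H2-Eb1, on slides 2 and 3), or hold a spot far from the others (Klra22). Each is written 5′ to 3′ and lies on the plus strand of GRCm38.
Tap2, coding exon, chr17:34205872-34205917: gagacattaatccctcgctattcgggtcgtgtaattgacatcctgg
H2-T3, coding exon, chr17:36189596-36189646: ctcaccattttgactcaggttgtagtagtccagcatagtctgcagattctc
H2-Eb1, coding exon, chr17:34309564-34309623: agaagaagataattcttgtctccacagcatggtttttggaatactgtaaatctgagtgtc
H2-Eb1, first intronic probe, chr17:34312540-34312599: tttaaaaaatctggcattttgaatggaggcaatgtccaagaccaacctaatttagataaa
H2-Eb1, second intronic probe, chr17:34313732-34313791: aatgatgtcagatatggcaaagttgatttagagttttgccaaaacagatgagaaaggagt
Klrb1f, intron, chr6:129051137-129051196: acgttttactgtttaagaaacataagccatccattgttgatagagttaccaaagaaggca
Klra22, between genes, chr6:130289018-130289077: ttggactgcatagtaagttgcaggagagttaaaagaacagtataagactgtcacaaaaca

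Both clusters hold families of similar genes, and 8 of the 120 probes had a further place in the genome with at least 90% of their bases. Of these, 4 were probes named Klra22, and the others belonged to H2-M10, H2-M10.5, Clec4a3 and Clec2e. The intronic H2-M10.5 probe is shown beside its nearest copy because the pair differs at only 6 of 60 positions, which are in capitals. A probe of this kind may report both places, and which part of the ratio came from the copy was not tested.
H2-M10.5 probe, chr17:36775770-36775829, plus strand: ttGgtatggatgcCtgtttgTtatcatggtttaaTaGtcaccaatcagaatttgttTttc
Nearest copy, chr17:36323265-36323324, minus strand: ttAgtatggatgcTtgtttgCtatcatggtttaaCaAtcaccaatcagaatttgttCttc

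The names in the files do not always match the annotation. The 14 probes named Klra22 were spread over the Ly49 cluster, 8 of them between genes and 6 inside Klra6, Klra4, Klra7 or Klra1, so the Klra22 value is an average over part of the cluster. The H2-Ke2 probe lay in a gene that the annotation names Pfdn6, and whether both names mean the same gene was not checked. In the other direction, 14 probes inside genes of these families carried other names.

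The genes that supply peptides to class I molecules lay on both sides of the chromosome mean. Tap2, a subunit of the peptide transporter, was at -1.36 in the lowest anti-PD1 tumour, -1.10 in the median and -0.38 in the highest, and at -1.23, -0.95 and -0.56 in the CD-HFD group. It was below 0 in 21 of 21 tumours, with a fitted level of -0.97 ± 0.05 (SE; adjusted p = 7.07e-14, limma). Its coding probe on slides 2 and 3 averaged -1.03 ± 0.20 (SD, n = 13 tumours), and its probe in the untranslated region averaged -0.93 on slide 1 and -0.99 on slides 2 and 3. Tap1, the other subunit, ranged from -0.17 to 1.16 in the anti-PD1 group (median 0.20) and from -0.15 to 0.98 in the CD-HFD group (median 0.61), above 0 in 17 of 21 tumours, with a fitted level of 0.45 ± 0.08 (SE; adjusted p = 2.75e-05). Tap1 rests on 1 probe, and its level was 0.15 with loess-normalized ratios and 0.97 after GC regression, in which each array was regressed on the GC content of the probe and its surroundings. Tap2 was at -0.47 with loess-normalized ratios and at -0.57 after GC regression, and passed in both. Of the immunoproteasome genes, Psmb9 was at 0.11 ± 0.04 (SE; adjusted p = 0.0211) over all arrays. Psmb8, measured by 1 probe on slides 2 and 3, was below 0 in 13 of 13 tumours (mean -0.46 ± 0.19, SD), but at -0.03 after GC regression, where it did not pass (adjusted p = 0.485). Psmb9 was at -0.04 (adjusted p = 0.366) when only the probe common to both designs was used. It also did not pass with array weights (0.08), without chromosome subtraction (0.10), with a model-based background correction (-0.02) or on slide 1 alone (0.02). After GC regression Psmb9 was at 0.22 and with loess-normalized ratios at 0.30, and it passed above 0 in both.

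Class II genes were as mixed. H2-Ab1, the beta chain of I-A, was below 0 in 13 of 13 tumours of slides 2 and 3, with anti-PD1 values between -0.97 and -0.28 and CD-HFD values between -0.96 and -0.56 (mean -0.63 ± 0.20, SD). H2-Oa, a subunit of H2-O, averaged -0.21 ± 0.29 (SD), below 0 in 10 of 13 tumours, but 0.20 after GC regression, where it passed above 0 (adjusted p = 0.00255). For H2-DMa, a subunit of the peptide editor H2-DM, the mean was -0.58 ± 0.17 (SD) over the 8 tumours of slide 1 with 3 probes and -0.08 ± 0.21 over the 13 of slides 2 and 3 with 1 probe. The fitted level of H2-DMa was -0.33 ± 0.04 (SE; adjusted p = 1.79e-07), but 0.02 (adjusted p = 0.671) with the 1 common probe, so it was not called there. H2-Eb1, the beta chain of I-E, averaged 0.16 ± 0.12 (SD, n = 13) over 3 probes, which themselves averaged -0.60 in the coding exon, 0.21 at the first intronic probe and 0.85 at the second. In the sequences shown above, the first probe ranged from -1.11 to -0.29 and the last from 0.60 to 1.19 over the 13 tumours, so neighbouring probes of 1 gene lay on opposite sides of 0 in every one of them. After GC regression H2-Eb1 averaged 0.03 and did not pass (adjusted p = 0.411, limma). H2-Eb2, a neighbour of H2-Eb1, had a fitted level of 0.65 ± 0.07 (SE; adjusted p = 1.86e-08), and its common intronic probe averaged 0.31 on slide 1 and 0.32 on slides 2 and 3. Its second probe averaged 1.62 on slides 2 and 3, where the reference spot was well above background on 1 of 13 arrays, so that ratio has no firm size. With loess-normalized ratios H2-Eb2 was at 0.20 (adjusted p = 0.00243). The pseudogene H2-Ea-ps averaged 0.14 ± 0.46 (SD) and did not pass in the fit of slides 2 and 3 (adjusted p = 0.107). Of the names outside the MHC families proper, H2-Ke2 averaged -0.73 ± 0.27 (SD) and H2-Ke6 -0.48 ± 0.18, both below 0 in 13 of 13 tumours. Each rests on 1 probe, and after GC regression H2-Ke2 was at 0.004 and H2-Ke6 at 0.18.

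Among the non-classical class I genes the lowest was H2-T3, which encodes the thymus leukaemia antigen. It lay at -1.29 in the lowest anti-PD1 tumour, -0.99 in the median and -0.43 in the highest, and at -1.47, -1.04 and -0.76 in the CD-HFD group. All 21 tumours were below 0, and the fitted level was -0.99 ± 0.05 (SE; adjusted p = 8.04e-15). The coding probe shown above averaged -1.11 on slide 1 and -1.07 on slides 2 and 3. A further probe in the same gene, which the files name otherwise, averaged 0.38 ± 0.67 (SD, n = 13 tumours) and ranged from -0.65 to 1.17. H2-M1 was at 0.15 ± 0.03 (SE; adjusted p = 0.000191), and 0.003 (adjusted p = 0.945) on slides 2 and 3 alone. With loess-normalized ratios H2-M1 was at 0.41 (adjusted p = 1.4e-09, limma). H2-Bl, measured by 1 probe on slide 1, averaged -0.57 ± 0.41 (SD) and was below 0 in 7 of 8 tumours, but averaged 0.10 after GC regression, where it did not pass, and 0.002 with normexp, a model-based background correction. H2-M3, which presents formylated peptides, averaged 0.14 ± 0.39 (SD, n = 13) and did not pass (adjusted p = 0.213). In the fit of slides 2 and 3, 4 of 10 genes of this family were below the chromosome mean, beside 41.8% of all genes, namely H2-T3, H2-T10 (mean -0.26 ± 0.31, SD, but 0.13 after GC regression), H2-M10.5 (-0.31 ± 0.30) and H2-M2 (-0.45 ± 0.35). Above it were 2, beside 36.1%, H2-M10.1 (0.41 ± 0.25) and H2-M10.4 (0.32 ± 0.34), and 4 did not pass, among them H2-M11 (-0.01 ± 0.13) and H2-M10.6 (-0.02 ± 0.18). H2-M10, on slide 1, averaged 0.08 ± 0.22 (SD, n = 8), but -0.54 after GC regression and 0.48 with normexp. Both of its probes lie between annotated genes, and the tumour spot was well above background on 2 of 8 arrays for one and 6 of 8 for the other.

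**Figure D1:**
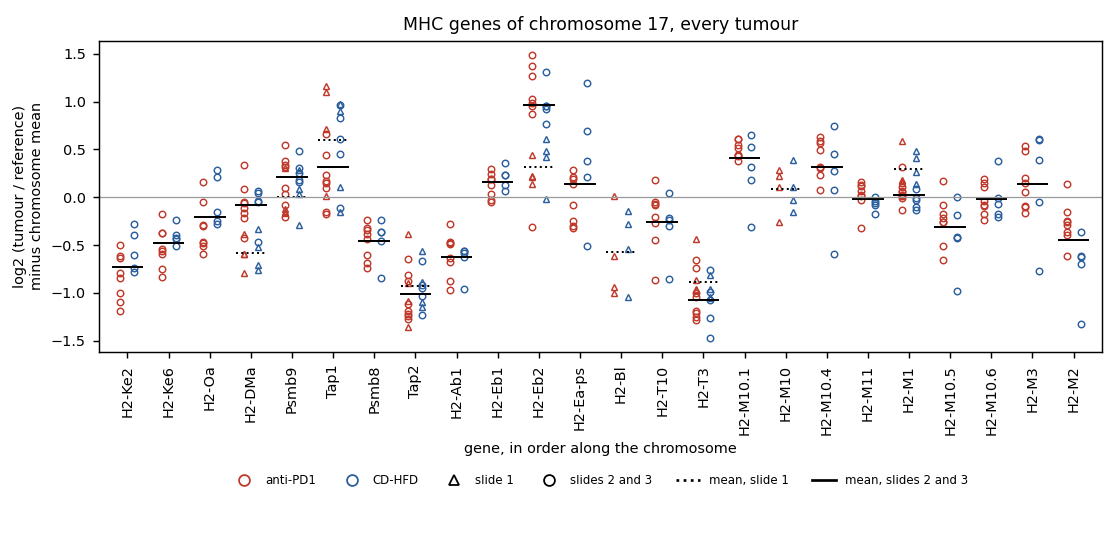
Relative log2 ratio (y axis) of the 24 MHC genes in order along chromosome 17 (x axis), 1 point per tumour, red for anti-PD1 and blue for CD-HFD, triangles for slide 1 and circles for slides 2 and 3; bars are the means of slide 1 (dotted) and of slides 2 and 3 (solid). Tap2 and H2-T3 lay below 0 in 21 of 21 tumours, while Tap1 and H2-Eb2 lay above 0 in 17 and 19 of them, and red and blue points overlap in every gene.

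On chromosome 6 the highest levels on slides 2 and 3 were those of Klrb1f and Klre1 in the NK gene complex. Klrb1f, an Nkr-p1 receptor, was above 0 in 13 of 13 tumours of slides 2 and 3, with anti-PD1 values between 0.86 and 1.30 and CD-HFD values between 0.72 and 1.45 (mean 1.104 ± 0.182, SD). Its intronic probe shown above averaged 1.55 and ranged from 1.05 to 1.91, and its other probe averaged 0.66. The Klrb1f mean was 1.03 after GC regression and 0.87 with normexp. Klrb1a was at 0.32 ± 0.07 (SE; adjusted p = 0.000102) over all arrays and at 0.10 (adjusted p = 0.127) on slides 2 and 3 alone, where other probes measure it. Klrb1c, which encodes NK1.1, averaged 0.04 ± 0.46 (SD, n = 13), with the anti-PD1 tumour of mouse 1109 at -1.24. That tumour was the lowest or highest of 13 in 21 of the 55 genes on slides 2 and 3. The Clec2 genes, ligands of these receptors, were interleaved with them. Of those, Clec2d, the ligand of the inhibitory receptor of Klrb1b, averaged 0.74 ± 0.30 (SD, n = 13) and Clec2i 0.60 ± 0.18, Clec2e was fitted at 0.30 ± 0.04 (SE; adjusted p = 1.28e-06) and Clec2g at -0.27 ± 0.03 (SE; adjusted p = 9.54e-08), below 0 in 19 of 21 tumours. Clec2h was fitted at 0.20 ± 0.05 (SE; adjusted p = 0.000673), and at -0.04 (adjusted p = 0.509) on slides 2 and 3 alone. It also did not pass after GC regression (0.10, adjusted p = 0.0823) or without the array design term (0.13, adjusted p = 0.0942). With loess-normalized ratios Clec2h passed at 0.38 (adjusted p = 2.4e-06, limma).

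In the dectin-1 cluster, Clec12a, an inhibitory myeloid receptor, was above 0 in 21 of 21 tumours. Its level ran from 0.43 through a median of 0.67 to 1.54 with anti-PD1 and from 0.34 through 0.65 to 0.92 on CD-HFD, with a fitted level of 0.76 ± 0.04 (SE; adjusted p = 2.69e-13). The 3 probes behind it differ between the designs, and their means were 0.96 on slide 1 and 0.69 and 0.44 on slides 2 and 3. Clec1a was fitted at 0.49 ± 0.07 (SE; adjusted p = 5.64e-07), from means of 0.09 on slide 1, where it did not pass alone (adjusted p = 0.350), and 0.84 on slides 2 and 3. On slide 1 it has 1 probe, whose tumour spot was well above background on 4 of 8 arrays. Clec7a, which encodes dectin-1, a receptor for fungal glucans, did not pass (0.09 ± 0.07, SE; adjusted p = 0.238), and without mouse 608, whose lesion 1 was at -1.18, it was at 0.21 and passed. Clec7a also passed on slides 2 and 3 alone (0.23), with array weights (0.14), with the mean of each mouse (0.16) and with normexp (0.19). It did not pass on slide 1 alone (-0.15) or after GC regression (-0.06). Clec9a, a receptor of cross-presenting dendritic cells, averaged -0.21 ± 0.17 (SD) and was below 0 in 13 of 13 tumours. Its neighbours Clec12b (mean 0.29 ± 0.18, SD) and Clec1b (0.27 ± 0.11), which encodes a platelet receptor, were above 0 in 13 of 13. The 3 probes of Clec12b averaged from -0.13 to 0.52. After GC regression Clec1b averaged 0.05 and did not pass (adjusted p = 0.135, limma).

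The CD94 and NKG2 genes on every array had fitted levels between -0.29 and 0.14. Klrd1, which encodes CD94, was at -0.05 ± 0.04 (SE; adjusted p = 0.217), and at -0.17 with the common probe, where it passed (adjusted p = 0.00063). Klrd1 also passed below 0 with loess-normalized ratios (-0.21, adjusted p = 0.00668, limma) and on slide 1 alone (-0.15, adjusted p = 0.00964). On slides 2 and 3 alone it did not pass (0.03, adjusted p = 0.599). Klrk1, which encodes the activating receptor NKG2D, was at 0.14 ± 0.05 (SE; adjusted p = 0.0119), and at 0.10 without mouse 1770, where it no longer passed. Nor did it pass with the mean of each mouse (0.10, adjusted p = 0.0850, limma) or on slide 1 alone (0.12, adjusted p = 0.135). It turned to -0.17 after GC regression (adjusted p = 0.00188) and to -0.13 with loess-normalized ratios (adjusted p = 0.0389), and passed below 0 in both. Klrc1, which encodes the inhibitory NKG2A, was at -0.29 ± 0.04 (SE; adjusted p = 3.57e-07) over all arrays, from 2 coding probes that averaged 0.34 and -0.50 on slides 2 and 3. Slide 1 carried only the lower of these probes, at -0.52, and on slides 2 and 3 alone Klrc1 did not pass (-0.07, adjusted p = 0.240). Its level was -0.10 after GC regression (adjusted p = 0.0359) and -0.45 with loess-normalized ratios (adjusted p = 1.93e-08). Klre1, the partner of Klri receptors, averaged 1.04 ± 0.22 (SD) and was above 0 in 13 of 13 tumours. It rests on 1 probe, and averaged 0.76 after GC regression and 0.73 with normexp. Klri1, measured on slide 1, averaged 0.66 ± 0.25 (SD) and was above 0 in 8 of 8 tumours. Klri2 was fitted at 0.22 ± 0.04 (SE; adjusted p = 4.73e-05), but did not pass after GC regression (0.06, adjusted p = 0.171) or in the authors' loess-normalized ratios (0.09, adjusted p = 0.0843). Klrc3 averaged 0.05 ± 0.30 (SD, n = 13) and did not pass (adjusted p = 0.783).

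Of the Ly49 genes, Klra17, Klra22 and Klra5 were above the chromosome mean and Klra2 was not. Klra17 was fitted at 0.39 ± 0.05 (SE; adjusted p = 5.37e-07), above 0 in 20 of 21 tumours, and Klra22 at 0.22 ± 0.04 (SE; adjusted p = 2.1e-05), but at 0.03 (adjusted p = 0.743) with the common probes alone, which hold the far spot of lesion 2 of mouse 2064. Without that tumour the common probes gave 0.14 (adjusted p = 0.000112). After GC regression Klra22 was at 0.10 (adjusted p = 0.0457, limma). Klra5, measured by 1 probe on slide 1, averaged 0.67 ± 0.09 (SD), or 0.36 after GC regression, and was above 0 in 8 of 8 tumours. Klra2, at the far end of the cluster, was at -0.09 ± 0.06 (SE; adjusted p = 0.177). Its call changed with the arrays, as it was at 0.01 without mouse 608 and passed at -0.12 without mouse 2067 or without mouse 604. It also passed on slides 2 and 3 alone (-0.26, adjusted p = 4.19e-05), after GC regression (-0.20, adjusted p = 0.00413), with loess-normalized ratios (-0.18, adjusted p = 0.0105) and with slide as a term (-0.15, adjusted p = 0.0244).

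Outside the NK gene complex, Klrg1, an inhibitory receptor of differentiated T and NK cells that binds cadherins, had a fitted level of 0.72 ± 0.09 (SE; adjusted p = 1.46e-07). Its range was 0.15 to 1.83 on slide 1 and -0.09 to 0.64 on slides 2 and 3, and the probe common to both designs was well above background in the reference on 11 of 21 arrays. The 3 Klrg1 probes of slides 2 and 3 averaged from -0.31 to 0.85, so they lay on both sides of 0. Klrg2, on slide 1 only, averaged -0.19 ± 0.18 (SD, n = 8), and 0.05 after GC regression. The Clec4 cluster was mixed. Clec4a1 was at -0.27 ± 0.04 (SE; adjusted p = 9.12e-07) but at 0.03 (adjusted p = 0.553) in the authors' loess-normalized ratios, and Clec4a3 was below 0 in 13 of 13 tumours. The 2 probes of Clec4a3 averaged -0.56 and 0.06. Clec4e, which encodes Mincle, a receptor for mycobacterial glycolipid and for dying cells, was above 0 in 13 of 13 (mean 0.51 ± 0.18, SD), while Clec4d was at 0.03 ± 0.05 (SE; adjusted p = 0.548), but at 0.11 without mouse 608 (adjusted p = 0.00892) and 0.12 on slides 2 and 3 alone (adjusted p = 0.00748), and Clec4a2 averaged 0.12 ± 0.45 (SD, n = 13). Clec4n, which encodes dectin-2, was at -0.05 ± 0.04 (SE; adjusted p = 0.305), from 0.13 (adjusted p = 0.00938) on slides 2 and 3 alone and -0.26 (adjusted p = 0.00191) on slide 1 alone, and Clec4b2 averaged 0.06 ± 0.23 (SD, n = 13). Clec4n was also below 0 and passed after GC regression (-0.39, adjusted p = 3.78e-08), with loess-normalized ratios (-0.49, adjusted p = 5.84e-07) and with the common probes (-0.28, adjusted p = 0.000274), but was above 0 with normexp (0.17, adjusted p = 6.19e-06). Clec4f, a galactose-binding receptor of Kupffer cells, was at -0.13 ± 0.04 (SE; adjusted p = 0.00799). For Clec4f the probe in the untranslated region averaged 0.47 on slide 1 and 0.45 on slides 2 and 3, the coding probe -0.73 and the intronic probes -0.39 and -0.61, so its direction turned with the probe, and the gene was 0.42 (adjusted p = 3.92e-07) with the common probe alone. Clec5a, a myeloid receptor elsewhere on chromosome 6, was at 0.10 ± 0.08 (SE; adjusted p = 0.254), and at 0.26 without mouse 608, where it passed (adjusted p = 0.000189).

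**Figure D2:**
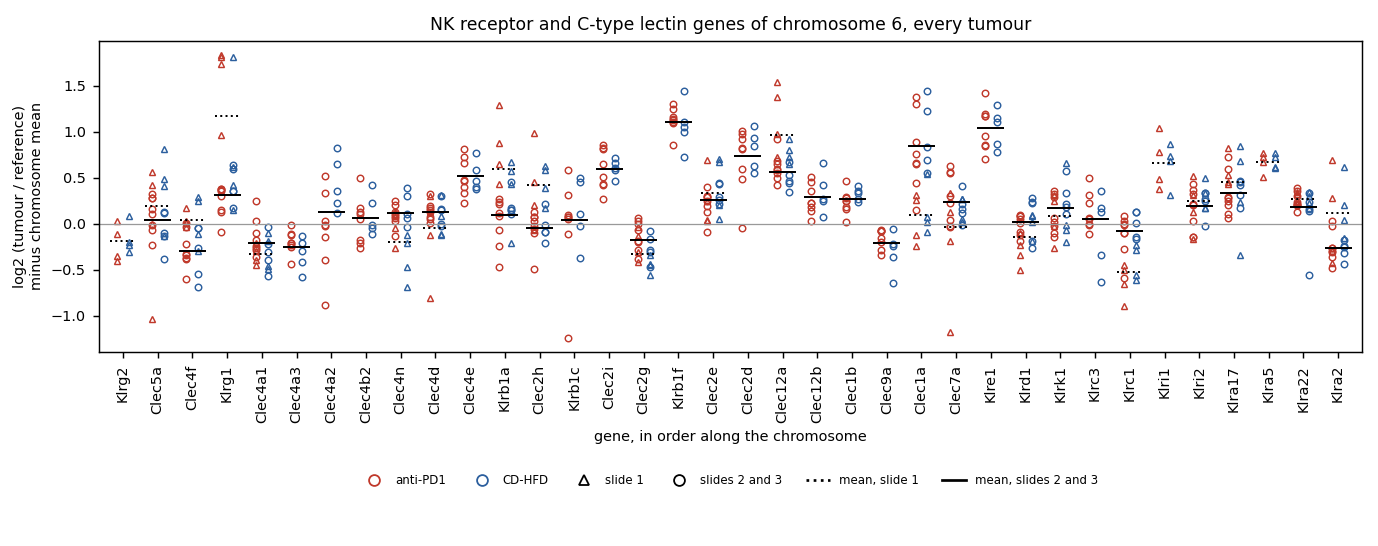
Relative log2 ratio (y axis) of the 36 NK receptor and C-type lectin genes in order along chromosome 6 (x axis), 1 point per tumour, with colours, symbols and bars as for the MHC genes. Klrb1f, Klre1, Clec2i and Clec4e lay above 0 in 13 of 13 tumours and Clec12a in 21 of 21, and several genes, such as Klrg1 and Clec1a, had slide 1 means (dotted) far from those of slides 2 and 3.

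Counted over the 27 genes on every array, 21 (77.8%) passed the test against the chromosome mean, beside 78.8% of all 13299 genes tested, so passing it is not particular to these genes. Above the mean were 14 of 27 (51.9%), beside 38.7% of all genes, and below it 7 of 27 (25.9%), beside 40.1%. By chromosome, 4 of 7 MHC genes were above and 3 below, where 33.7% of all tested genes of chromosome 17 were above and 44.4% below. For chromosome 6 the counts were 10 of 20 above and 4 below, where 38.2% of its genes were above and 40.8% below. On slides 2 and 3, 40 of 55 (72.7%) passed, beside 77.9% of all genes there, and 24 (43.6%) were above and 16 (29.1%) below, beside 36.1% and 41.8% of 21225 genes. On slide 1, 23 of 32 (71.9%) passed, beside 73.6%, and 13 (40.6%) were above and 10 (31.2%) below, beside 35.3% and 38.3% of 15352 genes. The median absolute level of the 27 genes was 0.27, beside 0.23 for all genes, and 5 of 27 (18.5%) had an absolute level of at least 0.5, beside 16.4%, among them H2-Eb2 and Klrg1 with their dim probes. With the authors' loess-normalized ratios 8 of 20 were above and 8 below (40% each), beside 38.8% above, 37.7% below and 76.5% in either direction of 7715 genes. After GC regression, Clec2h and Klri2 lost their calls above the mean and Clec4f its call below it. Klrk1 then passed below instead of above, and Clec4n, Klra2 and Klrd1 passed below, so fewer genes were above and more below.

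A probe on both designs gave similar levels on each. For the 26 probes common to both designs, the means of slide 1 and of slides 2 and 3 differed by a median of 0.09, and correlated with Pearson's r = 0.932 across probes, beside 0.956 for all 12730 such probes. The points share the reference pool, the probe sequence and the base composition, and probes are not independent replicates. Within a gene, probes spread more than tumours. Over the 28 genes with at least 2 probes on slides 2 and 3, the median SD between the probes of a gene was 0.39, while the median SD between tumours was 0.19, and the first was the larger in 19 of 28 genes. Over all 12213 such genes the medians were 0.35 and 0.17, and the first was the larger in 75.7%.

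**Figure D3:**
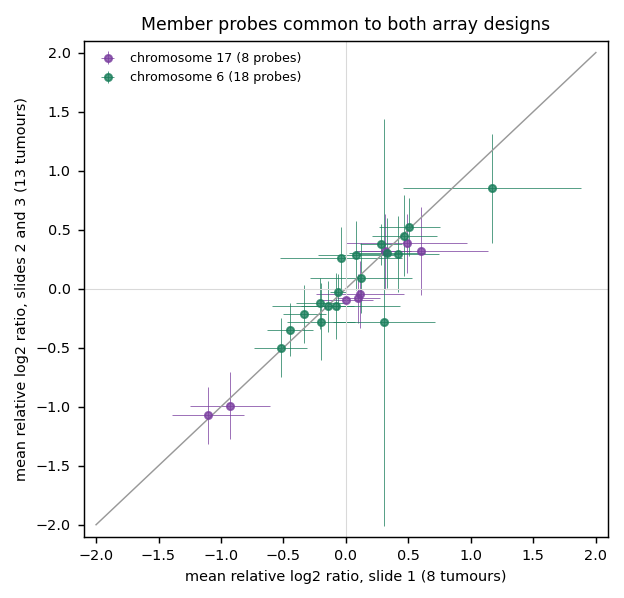
Mean relative log2 ratio of the 26 probes on both array designs, over the 8 tumours of slide 1 (x axis) and the 13 tumours of slides 2 and 3 (y axis), purple for chromosome 17 (8 probes) and green for chromosome 6 (18 probes); error bars are SD over tumours and the line marks equality. Most probes lie near the line, from H2-T3 and Tap2 at the lower left to Klrg1 at the upper right.

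To see whether the clusters moved as blocks, all probes between their first and last named gene were averaged, whatever their names. The 49 probes from H2-Ke2 to H2-Ea-ps (chr17:34076474-34481497, mm9) averaged -0.25 and were below 0 in 21 of 21 tumours, from -0.45 to -0.04. This stretch is called the class II and peptide supply region after its members, although only 19 of the 49 probes are named for members. The 156 probes from H2-Ea-ps to H2-Bl averaged -0.20, below 0 in 19 of 21. This stretch holds class I genes too, among them H2-Q1 and H2-T24, whose probes carry other names. The 98 probes from H2-Bl to H2-M2 (chr17:36220541-37618322) averaged 0.02. They are called the class I region below, although they cover only part of class I. The 115 probes of the NK gene complex from Klrb1a to Klra2 (chr6:128559399-131196256) averaged 0.21 and were above 0 in 21 of 21 tumours, from 0.12 to 0.30. The 23 probes of the Clec4 cluster averaged -0.12, below 0 in 15 of 21, from means of -0.32 on slide 1 and -0.001 on slides 2 and 3.

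GC content was mostly higher where these values were lower, with exceptions. The Clec4 cluster was low at a GC content of 40.5%, and the stretch with the highest GC content was not the lowest. Within 50 kb of a probe the GC content averaged 49.1% in the class II and peptide supply region and 49.9% from H2-Ea-ps to H2-Bl. From H2-Bl to H2-M2 it was 43.0%, beside 44.6% over chromosome 17. In the NK gene complex it was 39.5%, beside 42.4% over chromosome 6. Inside that complex the means fell with GC content, while the medians over tumours did not. GC content was 41.7% in the Klrb and Clec2 region (mean 0.24, median 0.26) and 39.2% in the dectin-1 cluster (0.23, 0.19). In the Ly49 cluster it was 37.8% (0.22, 0.25) and in the CD94 and NKG2 region 37.4% (0.19, 0.19). The Ly49 mean holds the far spot of lesion 2 of mouse 2064, where the cluster was at -0.27. After GC regression, the class II and peptide supply region was at -0.07, with 19 of 21 tumours below 0. The stretch from H2-Ea-ps to H2-Bl was at 0.009. The NK gene complex was at 0.09 after the regression and above 0 in 21 of 21 tumours. Within it, the Klrb and Clec2 region went from 0.24 to 0.19, the dectin-1 cluster from 0.23 to 0.10, the Ly49 cluster from 0.22 to 0.06, and the CD94 and NKG2 region from 0.19 to -0.007. The Clec4 cluster went further down, from -0.12 to -0.21, with 21 of 21 tumours below 0. The authors' loess-normalized ratios gave 0.08 for the class II and peptide supply region and 0.03 for the NK gene complex, with the Klrb and Clec2 region at 0.09. For single genes after the GC regression, Tap2 was at -0.57, H2-T3 at -0.67, Tap1 at 0.97 and Clec12a at 0.58, each on the side of 0 it had before (limma). Klrd1 was at -0.33 (adjusted p = 8.91e-09) and Psmb8 at -0.03, and the level of Klrk1 turned, as given above. Of the 28 genes on slides 2 and 3 only, 17 did not change in call in the fit of GC-corrected ratios, 5 lost it (Clec1b, H2-Eb1, H2-Ke2, H2-T10 and Psmb8), 2 turned (H2-Ke6 and H2-Oa, the latter at 0.20) and 4 gained one. Of the 5 on slide 1 only, H2-Bl and Klrg2 lost their calls and H2-M10 gained one.

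**Figure D4:**
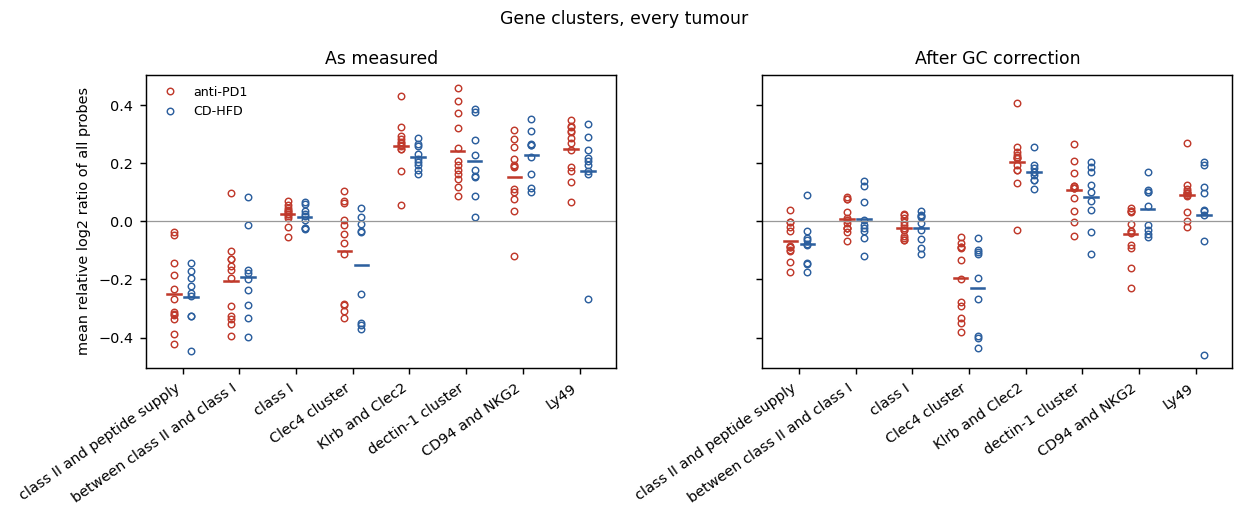
Mean relative log2 ratio of all probes in 8 stretches of chromosomes 17 and 6 (x axis), 1 point per tumour, red for anti-PD1 and blue for CD-HFD, with the group means as bars; the left panel shows the values as measured and the right panel those after GC correction. The class II and peptide supply points lie below 0 in 21 of 21 tumours on the left and in 19 of 21 on the right, and the outlying blue Ly49 point is lesion 2 of mouse 2064.

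The comparison of anti-PD1 with CD-HFD asked whether tumours that grew under the antibody carried other copy number in these genes. No member differed between the groups at an adjusted p of 0.05 (0 of 27, limma), and neither did any other gene (0 of 13299, 0%). At an unadjusted p under 0.05 there were 3 of 27 (11.1%), beside 9.92% of all genes. The differences of the 27 genes ran from -0.17 (Klrd1) to 0.24 (Klrg1, in part from the dim probe), 12 above 0 and 15 below, with a median absolute size of 0.09, beside 0.07 for all genes. The groups overlapped in all 60 genes, and 0% of the 13299 genes had groups apart from each other. The number of arrays limits the size of difference that could be seen. When each slide set was fitted alone, 0 of 55 members passed on slides 2 and 3 and 0 of 32 on slide 1, where 19 of 15352 genes (0.124%) passed. At an unadjusted p under 0.05 there were 4 of 55 on slides 2 and 3, beside 15.1% of all genes, and 9 of 32 on slide 1, beside 15.6%. The within-mouse correlation of the slide 1 fit was -0.64 and rests on the 2 mice with several lesions there (608 and 1770). With each tumour of slide 1 taken as independent, 8 genes (0.0521%) and 0 of 32 members passed, and 3 of 32 members had an unadjusted p under 0.05, beside 2.72%. Levels on slide 1 then passed in 22 of 32 members, beside 62.9%, with 13 above and 9 below, beside 29.7% and 33.3%. On slides 2 and 3 the 4 were H2-M2 at 0.45 (adjusted p = 0.232), Clec4a2 at -0.56 (adjusted p = 0.241), Tap1 at -0.37 (adjusted p = 0.2995) and H2-Oa at -0.29 (adjusted p = 0.309).

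Among the 27 genes on every array the smallest p belonged to Clec12a, whose tumour values are given above and overlapped between the groups. The difference, anti-PD1 minus CD-HFD, was 0.23 ± 0.09 (SE; unadjusted p = 0.0125, adjusted p = 0.391, limma), and 7 of 7 anti-PD1 mice were above the CD-HFD mean once array designs were centred. Without mouse 608 it was 0.13, and it was 0.39 on slide 1 and 0.12 on slides 2 and 3. With normexp the difference was 0.10. Lesion 1 of mouse 608 held the highest value of Clec12a and had the lowest signal of all arrays, and it was the lowest or highest of the 8 tumours of slide 1 in 16 of 32 genes.

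For Clec2g the anti-PD1 tumours ran from -0.41 through a median of -0.16 to 0.06 and the CD-HFD tumours from -0.56 through -0.34 to -0.08. The difference was 0.16 ± 0.07 (SE; adjusted p = 0.431), with 6 of 7 anti-PD1 mice above the CD-HFD mean. Klrd1 lay from -0.50 through -0.10 to 0.10 with anti-PD1 and from -0.27 through 0.08 to 0.28 on CD-HFD, with a difference of -0.17 ± 0.07 (SE; adjusted p = 0.457) and 6 of 7 anti-PD1 mice below the CD-HFD mean. The Klrd1 difference was -0.03 with array weights and -0.02 with loess-normalized ratios. For its partner Klrc1 the difference was -0.14 ± 0.08 (SE; adjusted p = 0.548). That of Klra22 was 0.14 ± 0.08 (SE; adjusted p = 0.554), 0.04 without mouse 2064 and -0.05 with the median of its probes. None of these differences passed.

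**Figure D5:**
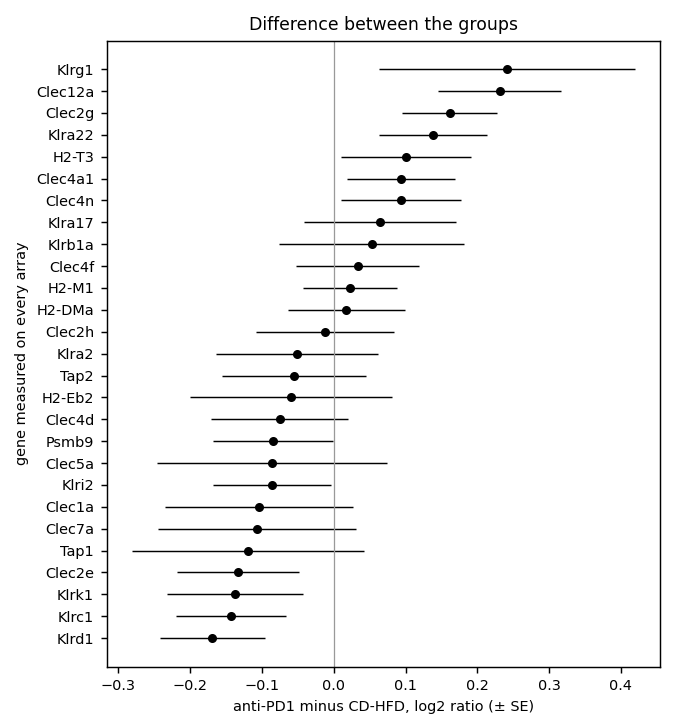
Fitted difference in relative log2 ratio, anti-PD1 minus CD-HFD (x axis), for the 27 genes measured on every array (y axis), with SE as bars. The differences run from -0.17 (Klrd1) to 0.24 (Klrg1, in part from a dim probe), and 0 of 27 passed an adjusted p of 0.05.

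Some genes differed in sign between the slides. For Klrg1 the difference was 1.101 on slide 1 (unadjusted p = 0.00206, adjusted p = 0.171, limma) and -0.18 on slides 2 and 3 (adjusted p = 0.370). The slide 1 value rests on the dim Klrg1 probe named above and has no firm size. Klrb1a was at 0.59 (adjusted p = 0.180) and -0.22 (adjusted p = 0.389), and Clec7a at -0.60 (adjusted p = 0.254) and 0.12 (adjusted p = 0.649). With the tumours of slide 1 taken as independent, the smallest adjusted p of a member there was 0.9999. Lesion 1 of mouse 608, the tumour with the lowest signal, held the highest Klrb1a value (1.29) and the lowest Clec7a value (-1.18). The slide sets carry mostly different mice and in part different probes of a gene, and these cannot be told apart. Averaged over the 24 MHC genes, with each gene centred per array design, anti-PD1 mice were at 0.003 ± 0.067 (SD, n = 7 mice) and CD-HFD mice at 0.013 ± 0.082 (SD, n = 7 mice). The families behind this mean did not all lie on 1 side, and none was tested as a family. The 6 class II genes averaged -0.06 ± 0.12 in anti-PD1 and 0.06 ± 0.10 in CD-HFD mice (SD, n = 7 mice each), and the 12 non-classical class I genes 0.05 ± 0.07 and -0.04 ± 0.14. H2-Ke2 and H2-Ke6, measured on slides 2 and 3, averaged -0.08 ± 0.18 (SD, n = 6 mice) and 0.12 ± 0.11 (SD, n = 4 mice). Over the 36 genes of chromosome 6 the means were 0.002 ± 0.046 and 0.003 ± 0.081 (SD, n = 7 mice each).

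In single tumours, a median of 29.1% of the measured members (16.4 to 56.2%) had an absolute relative log2 ratio of at least 0.5, beside a median of 28.0% of all genes (15.5 to 39.9%). The share of members was the larger in 14 of 21 tumours. It was highest, at 18 of 32 genes, in lesion 2 of mouse 2067 (CD-HFD, slide 1), where 33.5% of all genes passed this size, and lowest, at 9 of 55, in lesion 1 of mouse 2116 (anti-PD1), which had the lowest noise. The SD over 14 mice of the 27 genes, after centring per array design, had a median of 0.18, beside 0.16 for all genes. The largest spreads among all members were those of Klrb1c (0.48), Klrg1 (0.43), H2-Bl (0.35), Clec4a2 (0.34) and, at 0.32, Tap1, Clec2d and Clec5a.

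A pair of member spots stood far from the same probe on other arrays. The Klra22 probe shown above was at -5.97 in lesion 2 of mouse 2064, where the other 20 arrays lay between -0.28 and 1.08. The mean reference signal of that spot was 13387 intensity units over a local background of 599, while on the other arrays it was 90.8 to 236 over 47 to 55. Klra22 was at -0.55 in that tumour with this probe and at 0.22 without it. The dim H2-Eb2 probe was at -1.44 in lesion 1 of mouse 2094, where the other 12 arrays lay between 1.24 and 2.66, and the reference signal there was 109, beside 62.7 to 81.5. H2-Eb2 was at -0.31 in that tumour with this probe and at 0.83 without it. Neither spot carried an outlier flag.

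Other genes of the same pathways lie elsewhere in the genome. Of 18 antigen presentation genes, 12 were on every array, and 6 were above and 4 below the mean of their own chromosome, beside 38.7% and 40.1% of all genes, with Pdia3, a chaperone of class I loading, at 0.35 ± 0.05 (SE) and Psmb10, the remaining immunoproteasome subunit, at -0.67 ± 0.04 (SE). Of 20 genes of NK ligands and adaptors, 3 were on every array, with Cd96 at -0.39 ± 0.03 (SE) and Raet1a, a ligand of NKG2D, at -0.07 ± 0.03 (SE; adjusted p = 0.087). None of these 15 genes differed between the groups at an adjusted p of 0.05 (limma; 0 of 15). Ctss, Erap1 and Cd226 had an unadjusted p under 0.05 (3 of 15, beside 9.92% of all genes), and their smallest adjusted p was 0.391.

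Among probes with another name in the files, that inside H2-Q1 averaged 0.001 ± 0.139 (SD, n = 13 tumours) and that inside Tapbp, the chaperone that tethers class I molecules to the transporter, -0.38 ± 0.37. The H2-DMb2 probe averaged -0.65 ± 0.55 and that inside H2-M5 0.67 ± 0.30. On slide 1, the probe inside Klrc2 averaged 0.65 ± 0.36 (SD, n = 8 tumours) and that inside H2-Ob -0.06 ± 0.20. The 14 probes averaged between -0.89 (Clec4a2, slide 1) and 0.67.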

How the data were processed

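DNA of 21 tumours was measured on 2-colour arrays with mm9 positions. The authors deposited Feature Extraction 11.0.1.1 files holding dye-normalized processed intensity values and a log10 ratio per spot, and, for the probes shared by the designs, loess-normalized log2 ratios, read here as tumour over reference. The log10 column matched the intensities within 0.01 for at least 99.4% of spots on each array. The aCGH protocol is not given in the sources used here. Flagged and control spots were left out. Gene values were fitted with limma 3.58.1 in R 4.3.3 with array design as a term and mouse as a random block (within-mouse correlation -0.16), and p-values were adjusted (Benjamini-Hochberg) over all genes tested. SDs over mice used mouse means after centring each gene per design. The fit was tested on simulated data. Probe sequences were placed in GRCm38 by exact match of the whole sequence and annotated by GENCODE M21. Near matches were searched with blastn 2.17.0. Named were 26 listed genes where probed, and the highest and lowest gene of each family among the genes on every array. The 5 genes with the smallest group p and the 5 with the largest spread were also named. Other genes and probes were picked with their values known. The members and lists were chosen with earlier results of these data known. Alternatives covered background correction, probe choice, scaling, GC regression, array weights and each mouse left out. The settings without lesion 2 of mouse 2064, with the tumours of slide 1 as independent, with GC regression per slide set and those for regions were added after the data were seen.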

Additional observations from a re-analysis of the deposited data

Results flagged for a closer look

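Mouse means were compared within each group, after each gene was centred per array design, and 10 of 90 groups of mice held a mouse far from the others, where chance gives about 1 in 20 (4.5 groups) for series chosen without regard to their spread. Some of these genes were named for a large spread over mice or an extreme level, and a gene and its family can share values, so the counts are not comparable. In the anti-PD1 group, mouse 1109 was low for Klrb1c at -1.28 (other mice 0.01 to 0.27), for Klrc1 at -0.51 (others -0.11 to 0.11) and for H2-Ab1 at -0.34 (others -0.01 to 0.16). Klrb1c and H2-Ab1 rest on 1 probe each. Mouse 2094 was low for Klrb1a at -0.30 (others 0.06 to 0.18), and mouse 2116 was high for the mean of H2-Ke2 and H2-Ke6 at 0.27 (others -0.26 to -0.07).

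In the CD-HFD group, mouse 1770 was low for Klrb1a at -0.48 (others -0.02 to 0.22), and its Klrb family mean of -0.48 is the same value, since this mouse was on slide 1 only, where Klrb1a is the one Klrb gene. Mouse 2067 was high for Klra2 at 0.50 (others -0.28 to 0.05) and for the Ly49 family at 0.20 (others -0.12 to 0.02). Mouse 2064 was low for Klra22 at -0.34 (others -0.05 to 0.15), which holds the spot at -5.97 described above.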

How the results depend on the processing

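Of the members, 0 differed between the groups at an adjusted p of 0.05 under every setting run, and at an unadjusted p under 0.05 there were 3 of 27. Over all genes the count was 0 with each mouse left out, 1 with at least 3 probes a gene, 19 on slide 1 alone and 8 there with tumours taken as independent. Genes apart from their chromosome mean were 10480, and 6846 with common probes, 5900 of 7715 with the authors' loess ratios, 1459 with at least 3 probes and 16531 on slides 2 and 3 (10156 to 10526 leaving out mice). Members above it were 14 of 27, and 9 of 21 with common probes, 8 of 20 with loess, 1 of 1 with at least 3 probes, 24 of 55 on slides 2 and 3 and 6 of 13 with spots well above background only (13 to 17 leaving out mice). Members below it were 7 of 27, and 0 of 1 with at least 3 probes and 16 of 55 on slides 2 and 3 (7 to 8). These settings test fewer or other genes. The median share of members past 0.5 was 29.1% (28.0% of all genes), and 52.7% past 0.3 (50.9%) and 6.25% past 1 (4.75%). The mean group difference ran from -0.03 to 0.005 for MHC genes and from -0.02 to 0.02 for chromosome 6 genes leaving out mice. With loess it was -0.0692 and -0.0118, and without chromosome subtraction -0.0551 and -0.0603.

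Among fitted levels of the 27 genes, called levels of the genes on 1 design, and regions, those that changed sign were as follows, and the cause was not tested. With common probes, Clec4f was 0.416, H2-DMa 0.0202, Klra2 0.0746 and Psmb9 -0.0407. With loess, Clec4a1 was 0.0271, Clec4f 0.399, H2-DMa 0.0800, Klrk1 -0.13, the class II and peptide supply region 0.0812, the class I region -0.0288 and the CD94 and NKG2 region -0.13. With GC correction, Clec4f was 0.0612, Clec7a -0.0611, Klrk1 -0.17, H2-Bl 0.0995, H2-Ke2 0.00383, H2-Ke6 0.18, H2-Oa 0.20, H2-T10 0.13 and Klrg2 0.0532. The stretch from H2-Ea-ps to H2-Bl was then 0.00899, the class I region -0.0232 and the CD94 and NKG2 region -0.00662. With normexp, Clec4n was 0.17, Klra2 0.0338, Psmb9 -0.0197 and H2-Bl 0.00155. On slide 1 alone, Clec4d was -0.11, Clec4f 0.0285, Clec7a -0.15 and Klra2 0.00656, and on slides 2 and 3 Clec2h was -0.0366, Clec4n 0.13 and Klrd1 0.0293. With slide as a term, Clec4n was 0.00403. Klra2 ran from -0.124 to 0.0143 leaving out mice, the latter without mouse 608, and Clec4n from -0.0921 to 0.0293, the latter without mouse 1770. The Klra22 group difference was -0.0484 with the probe median.

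No paired analysis was possible because no mouse is in both groups and the replicate numbers only count samples. The 21 arrays limit the precision, and dim spots such as the second H2-Eb2 probe give no firm size.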
